A study of Mus musculus with 19 samples.

Results

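The miR-34 and miR-449 family was followed in mouse sperm through its 6 genes, Mir34a, Mir34b, Mir34c, Mir449a, Mir449b and Mir449c, out of 2198 miRNA hairpins searched. A member's reads were those of 20–24 nt that matched its hairpin in sense orientation, with no more than 1 mismatch. Reads that matched several hairpins equally well were divided among them. Sperm came from the cauda epididymis of wild-type C57BL/6J males, treated to lyse somatic cells. From 8 weeks of age the males received, by oral gavage for 4 weeks, either corn oil alone (control) or dicyclohexyl phthalate (DCHP), a plasticizer, at a daily dose of 10 mg per kg of body weight. The labels name DCHP gavage as the treatment of every sample, so the sample titles decided which samples were control and which DCHP. Small RNA was sequenced by traditional RNA-seq (5 control and 5 DCHP libraries) and by PANDORA-seq (4 control and 5 DCHP libraries), in which RNA is first treated with AlkB, a demethylase, and T4PNK, a kinase that repairs RNA ends, so that modified fragments can be ligated and copied. The comparisons below ask how the method and the exposure bear on the family.

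A miRNA is cut from a hairpin as a duplex of a 5′ and a 3′ strand, of which one is usually retained, and bases 2 to 8 of the retained strand, the seed, pair with target mRNAs. The 5′ strands of the miR-34 and miR-449 genes share a seed and are treated as one family. Mir34b and Mir34c, and the 3 Mir449 genes, are known from meiotic and later male germ cells and from cells with motile cilia, and Mir34a is broadly expressed and induced by p53.

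The family occupied 3 loci of GRCm38. Mir34c (ENSMUSG00000065587.1, chr9:51103034-51103110) and Mir34b (ENSMUSG00000065492.1, chr9:51103562-51103645) lay on the minus strand with 451 bases between them, in an intron of Btg4, a gene on the opposite strand. Mir449c (chr13:113035983-113036091), Mir449b (chr13:113037419-113037498) and Mir449a (chr13:113037534-113037624) lay on the plus strand in an intron of Cdc20b, on the same strand as that gene. Mir34a (chr4:150068454-150068555, plus strand) lay in an exon of Gm37795, a transcript of type TEC.

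The mature strands show the family relation on which the comparison of members rests. They are RefSeq sequences on GRCm38.p6, written 5′ to 3′ with the seed (bases 2 to 8) in capitals. The 4 strands with the seed GGCAGUG come first, then the 3′ strands of Mir34b and Mir34c, which share another seed, AUCACUA. miR-34c-5p and the miR-449b strands are named only.
miR-34a-5p: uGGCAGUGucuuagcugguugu
miR-34b-5p: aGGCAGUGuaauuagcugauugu
miR-449a-5p: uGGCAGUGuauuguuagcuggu
miR-449c-5p: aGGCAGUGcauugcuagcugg
miR-34b-3p: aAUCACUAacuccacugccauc
miR-34c-3p: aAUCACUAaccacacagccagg

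The libraries held 21588335 to 56506344 reads. Levels are given as RPM, here reads per 1000000 miRNA reads, where miRNA reads are those of 20–24 nt on the 453 hairpins whose reads were mostly (at least 50%) of that length. Mature strands are of nearly equal length, so RPM was not scaled by length. By this count PANDORA-seq libraries held 5816 to 46900 miRNA reads (0.0229–0.106% of all reads) and traditional libraries 959446 to 8146852 (3.96–15.6%). A count of 3 reads, taken as the limit that a count of 0 allows, was therefore 64.0 to 516 RPM in PANDORA-seq and 0.368 to 3.13 RPM in traditional libraries. These limits and all intervals on shares below cover counting error only. Traditional control replicate 2 stood apart: it had the most miRNA reads, and Mir122, a liver miRNA, made up 43.2% of them, against 1.38–24.1% in the other traditional libraries. The level differences between DCHP and control in traditional RNA-seq, for members and for marker lists, are also given without it. Of 13 X-linked miRNA genes of male germ cells, 13 had reads in each traditional group and 11 in each PANDORA-seq group. Their summed level was 8887 to 52310 RPM in traditional RNA-seq, lowest in control replicate 2, and 12693 to 33649 in PANDORA-seq. Markers of other cells were also present, with the miR-200 family of epithelia at 6024 to 47539 RPM over all libraries.

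Mir34c was the most abundant member in every library. In traditional RNA-seq it was found at 1741, 673, 2454, 3126 and 2972 RPM in control replicates 1 to 5. The DCHP replicates had 5921, 2728, 3029, 3627 and 4278 RPM. These levels rested on 2497.5 to 12572.5 reads a library, and Mir34c ranked 36 of 453 hairpins by its mean over the 10 libraries, 3055 RPM. Control replicate 2 was the lowest library and DCHP replicate 1 the highest.

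In PANDORA-seq, Mir34c rested on 12, 20, 28 and 40.5 reads in the control libraries and on 33, 37, 36, 63 and 234 in the DCHP libraries. Its levels were 2063, 1670, 1199 and 1999.7 RPM in control and 2640.5, 2675, 3378, 3892.5 and 4989 RPM in DCHP. All 5 DCHP libraries lay above all 4 control libraries, which held for 0.556% of the 180 hairpins tested, and the level difference did not pass adjustment (edgeR adjusted p = 0.916). Of these 180 hairpins, 80 had reads mostly of 20–24 nt. The share that chance alone gives was not tested. Mir34c ranked 44 by its PANDORA-seq mean of 2723 RPM.

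Mir34b, the neighbour of Mir34c, was the next most abundant. It was found at 247, 89.2, 338, 326 and 703 RPM in traditional control and at 601, 304, 583, 534 and 542 in traditional DCHP libraries. The groups overlapped, since control replicate 5 was the highest of all 10. In PANDORA-seq it was found at 1547, 418, 385 and 716 RPM in control and at 1120, 217, 1408, 865 and 746 in DCHP. These PANDORA-seq values rested on 3 to 35 reads a library and the groups overlapped.

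Mir449a was about 2 orders of magnitude rarer than Mir34c. In traditional RNA-seq its levels were 7.67, 4.30, 12.6, 17.8 and 15.5 RPM in control and 19.3, 14.6, 21.9, 20.6 and 26.9 in DCHP libraries, from 11 to 79 reads. The groups overlapped through DCHP replicate 2. In PANDORA-seq it was found in 1 of 9 libraries, with 4 reads in DCHP replicate 5 (85.3 RPM). The traditional levels are below what 3 reads stand for in every PANDORA-seq library, so the counts of 0 in the other 8 do not show that Mir449a was lower there.

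Mir34a was found at 4.88, 14.4, 4.97, 2.97 and 5.17 RPM in traditional control and at 2.61, 6.25, 7.58, 5.88 and 8.51 in traditional DCHP libraries. It rested on 4 to 25 reads, except for 117 in control replicate 2, the library rich in Mir122. Without that library the control mean was 4.50 ± 1.02 (SD, n = 4) RPM in place of 6.47 ± 4.50 (n = 5), beside 6.17 ± 2.25 (n = 5) in DCHP. It had no read in any of the 9 PANDORA-seq libraries, where 3 reads stand for more than its traditional level, so these counts of 0 do not show that it was lower.

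Mir449b and Mir449c were at the edge of detection. Mir449b had 11 reads of 20–24 nt in all, 7 of them in traditional control replicate 3, and Mir449c had 7, of which 6 were in traditional DCHP replicate 5. Only 40.7% and 20.9% of the reads on these 2 hairpins were 20–24 nt long, against 88.9% to 96.3% on the other 4. They were outside the 453 hairpins, which did not itself bar a hairpin from the tests of level. Of the 180 hairpins tested for DCHP in PANDORA-seq, 80 were among the 453. Mir449b and Mir449c were not tested because they lacked the required 10 reads in at least 4 libraries. The order of the members by mean level in traditional RNA-seq was thus Mir34c, Mir34b, Mir449a and Mir34a. The ranges of the first 3 did not overlap within a group, with one exception: Mir34b in control replicate 5, at 703 RPM, was above Mir34c in control replicate 2, at 673. Mir449a and Mir34a overlapped in control but not in DCHP libraries.

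**Figure D1:**
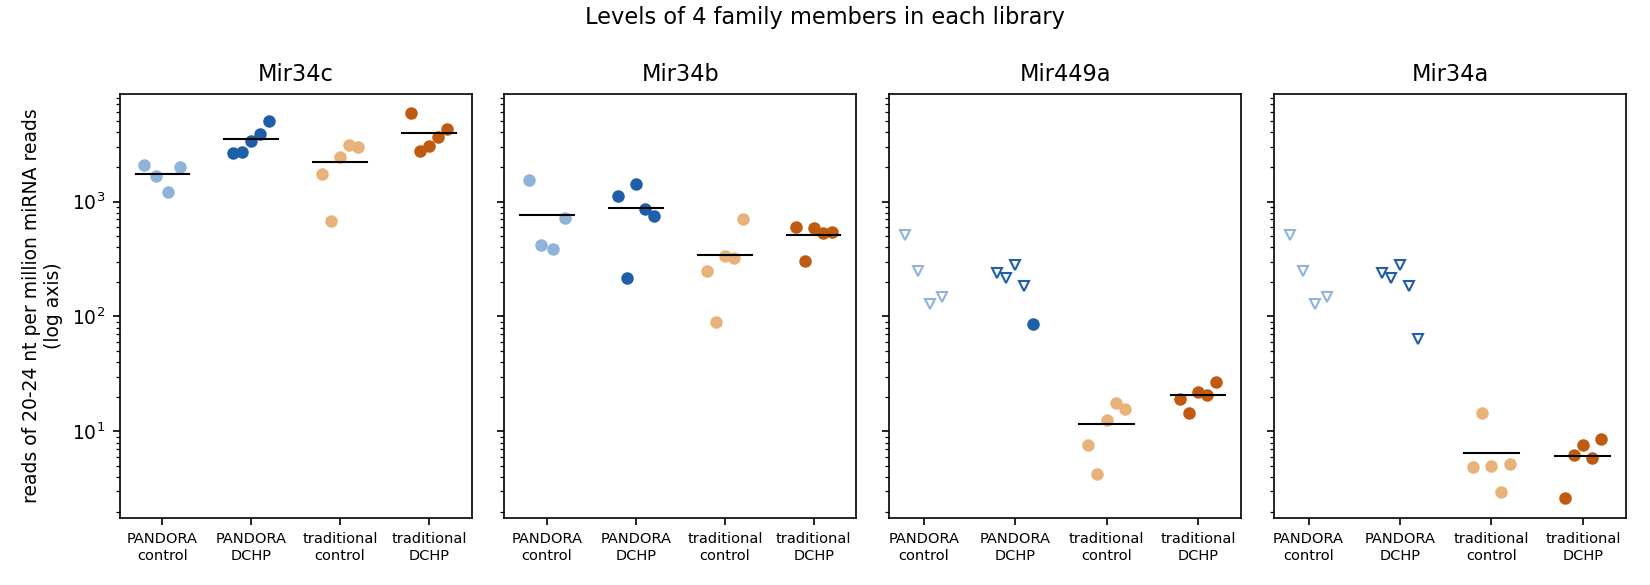
RPM, reads of 20–24 nt per 1000000 miRNA reads (log axis), of Mir34c, Mir34b, Mir449a and Mir34a, with 1 point a library and a line at the group mean where every library had reads; open triangles mark libraries without reads at the level of 3 reads. Mir34c sits between 673 and 5921 RPM in all 19 libraries, while Mir34a has only open triangles in PANDORA-seq.

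PANDORA-seq and traditional RNA-seq were compared within each exposure with edgeR's quasi-likelihood test over all hairpins with 10 reads in at least 4 libraries, and a call needed an adjusted p under 0.1 with more than a 2-fold change. Of the 6 members, 3 were tested, and none of them passed. Among all hairpins tested, 49.9% of 343 were called in the control groups (44.9% higher and 4.96% lower in PANDORA-seq), and 40.2% of 376 in the DCHP groups (39.1% and 1.06%). In control sperm the fold of PANDORA-seq over traditional RNA-seq was 2.05 for Mir34b (log2 difference 1.04, SE 0.62, 95% interval of the fold 0.831 to 5.08, adjusted p = 0.196). It was 0.780 for Mir34c (log2 difference −0.36, SE 0.49, interval 0.383 to 1.59, adjusted p = 0.583). In DCHP sperm the folds were 1.67 for Mir34b (interval 0.907 to 3.07, adjusted p = 0.203) and 0.904 for Mir34c (interval 0.549 to 1.49, adjusted p = 0.775). The third member, Mir449a, gave no usable fold, since 8 of 9 PANDORA-seq libraries held no read of it.

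Libraries of the same replicate number deviated together between the methods, so the comparison was repeated with the replicate number as a block. Control replicate 1 did so least, with r of 0.164, and its own number was not its best match. In control sperm this also left out traditional control replicate 5, which had no PANDORA-seq partner. Mir34b was then called in control sperm (log2 difference 1.46, adjusted p = 0.0112 by edgeR), where 48.0% of 333 hairpins were called higher and 6.91% lower. It was not called in DCHP sperm (0.65, adjusted p = 0.135), where 39.4% of 376 were called higher and 1.6% lower. Leaving out traditional control replicate 5 alone, without the block, already gave a call of about the same size (1.49, adjusted p = 0.0615), whereas without PANDORA-seq control replicate 1 the difference was 0.56 (adjusted p = 0.527).

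The scale of this comparison depends on the denominator. Per 1000000 total reads Mir34c was at 0.472–0.756 in PANDORA-seq control, 0.697–5.31 in PANDORA-seq DCHP, 73.4–169 in traditional control and 121–389 in traditional DCHP libraries. With all reads as library size, Mir34c was lower in PANDORA-seq by a log2 difference of −7.56 in control (adjusted p = 2.05e-06) and −6.89 in DCHP sperm (adjusted p = 2.74e-06), and Mir34b by −6.23 (adjusted p = 3.02e-06) and −6.29 (adjusted p = 1.28e-06). On that scale 73.2% and 75.8% of hairpins were called lower and 2.62% and 2.93% higher, and the median of the hairpins with reads mostly of 20–24 nt was −7.38 and −6.82. The split moved with other scalings too. In control sperm 31.2% were called higher and 65.3% lower with edgeR's TMM scaling, and 31.2% and 58.6% with DESeq2. In DCHP sperm these shares were 33.5% and 56.6% with TMM and 32.2% and 64.1% with DESeq2. Mir34c was called lower under each of these scalings, with log2 differences of −4.67 (TMM) and −4.65 (DESeq2) in control and −2.51 and −3.41 in DCHP sperm, and the sign of Mir34b turned to lower. Relative to the median of the hairpins with reads mostly of 20–24 nt, Mir34b was 1.1 higher in control and 0.69 higher in DCHP sperm, on the log2 scale. Mir34c was −0.30 and −0.19 from that median. Scaling shifts all hairpins of a library alike, so by construction these relative values move little with it and are no check on it.

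The balance between the 2 neighbours was also compared by method. Mir34b made up 12.4, 11.7, 12.1, 9.43 and 19.1% of the reads of Mir34b and Mir34c together in traditional control and 9.22, 10.04, 16.1, 12.8 and 11.2% in traditional DCHP libraries. In PANDORA-seq its share was 42.9, 20, 24.3 and 26.4% in control and 29.8, 7.5, 29.4, 18.2 and 13.0% in DCHP libraries. The control groups did not overlap between methods, and the DCHP groups did. By replicate number, the share was higher in PANDORA-seq in every pair except DCHP replicate 2 (7.5 against 10.04%). Group means were 28.4 ± 10.01% (SD, n = 4) and 19.6 ± 9.90% (n = 5) in PANDORA-seq against 13.0 ± 3.64% (n = 5) and 11.9 ± 2.73% (n = 5) in traditional RNA-seq. The share was not tested, and few reads stood behind it in PANDORA-seq: the 42.9% of control replicate 1 came from 21 reads, with a 95% Wilson interval of 24.5 to 63.5%.

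The 2 hairpins resemble each other, and the share depends on how their reads are assigned. Reads divided between hairpins were 0.856% of Mir34b reads and 0.119% of Mir34c reads when only the best matches counted. When every hairpin within 1 mismatch took an equal part, the traditional reads of Mir34b came to 37693.5 in place of 9288, and those of Mir34c to 38833.5 in place of 67239. The group means of the share then became 61.4 and 54.5% in PANDORA-seq and 49.9 and 49.1% in traditional RNA-seq. With exact matches only they were 28.5, 19.99, 12.7 and 11.7%.

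**Figure D2:**
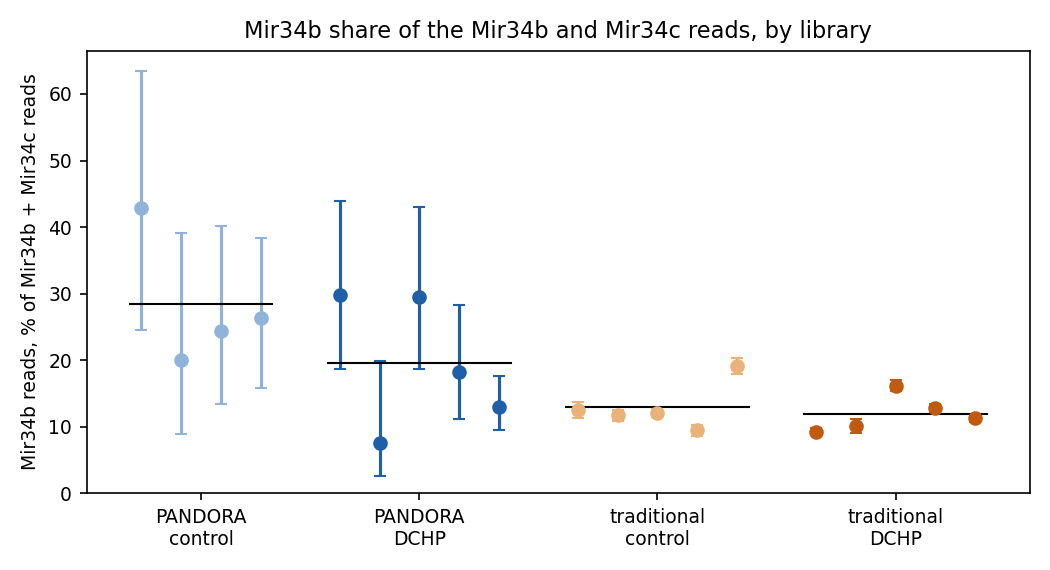
Mir34b reads as a percentage of Mir34b plus Mir34c reads, with 1 point a library, 95% Wilson intervals as bars and a line at each group mean. Traditional libraries sit between 9.22 and 19.1% with narrow intervals, and PANDORA-seq libraries spread from 7.5 to 42.9% with wide ones.

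The members differed in the strand they retained. Of Mir34c reads, 94.8% came from the 5′ arm in traditional RNA-seq (Wilson interval 94.6–94.9) and 97.6% in PANDORA-seq (95.9–98.6). Mir449a also came from the 5′ arm, with 94.0% of 366 traditional reads (91.1–96.0), as did all 220 reads of Mir34a. Mir34b came from the other arm: its 5′ arm held 2.77% of its traditional reads (2.45–3.12) and 2.95% of its PANDORA-seq reads (1.33–8.39). Of these traditional 5′ arm reads 38.9% held a mismatch, against 10.6% of Mir34b 3′ arm and 9.52% of Mir34c 5′ arm reads. Whether some of them came from Mir34c was not tested. Most family reads were thus of the 5′ strand of Mir34c, while most Mir34b reads carried the AUCACUA seed of miR-34b-3p.

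With reads pooled over libraries, the most frequent forms were the same in both methods. Mir34c 5′ reads most often ran from position 13 to 34 of the hairpin, which is 22 nt (73.9% of arm reads in traditional RNA-seq and 77.3% in PANDORA-seq). Next came the form that ended 2 nt earlier, at position 32 (14.8 and 12.4%), which exceeded the form that ended at 33 (7.39 and 5.70%). In PANDORA-seq this pool held 491.5 reads, 229 of them from DCHP replicate 5. Averaged by library, 3.64% of reads ended at 32 and 5.72% at 33 in PANDORA-seq control, the reverse order. In PANDORA-seq DCHP libraries these means were 10.7 and 5.85%. Among annotated strands, the most frequent 3′ end was 1 nt inside the RefSeq end for miR-34b-3p, miR-34c-3p and miR-449a-5p, and at the RefSeq end for the rarer strand miR-449a-3p. The most frequent 5′ end matched the annotated one in each of these 4. miR-34a-5p had no single most frequent 3′ end: 62 of its 220 reads ended 1 nt inside the RefSeq end, 62 ended 1 nt beyond it and 57 ended at it. miR-34b-5p was also divided in traditional RNA-seq, where 63.5 of its 257 reads ran from position 14 to 35, 1 nt inside the RefSeq end, and 53.5 from 14 to 36, the RefSeq form. With a mismatch in 38.9% of these 257 reads, their assignment to Mir34b was less certain than that of its 3′ arm reads.

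The 5′ end of Mir34b was less fixed than that of the other members. Its 3′ arm reads began at position 51 of the hairpin in 79.2% of cases in traditional RNA-seq (Wilson interval 78.3–80.0) and 79.1% in PANDORA-seq (70.8–85.6), and most of the others began at 52, which moves bases 2 to 8 by 1. The commonest read of each start is shown as sequenced, with bases 2 to 8 in capitals, because the capitals show the shifted seed. The first had 5054 reads (55.3% of arm reads) and the second 1123 (12.3%).
Mir34b 3′ arm, start at 51: aATCACTAactccactgccat
Mir34b 3′ arm, start at 52: aTCACTAActccactgccat
For comparison, 97.0 to 97.9% of Mir34c 5′ reads in each traditional library began at the most frequent position. All Mir449a and Mir34a 5′ reads did so.

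**Figure D3:**
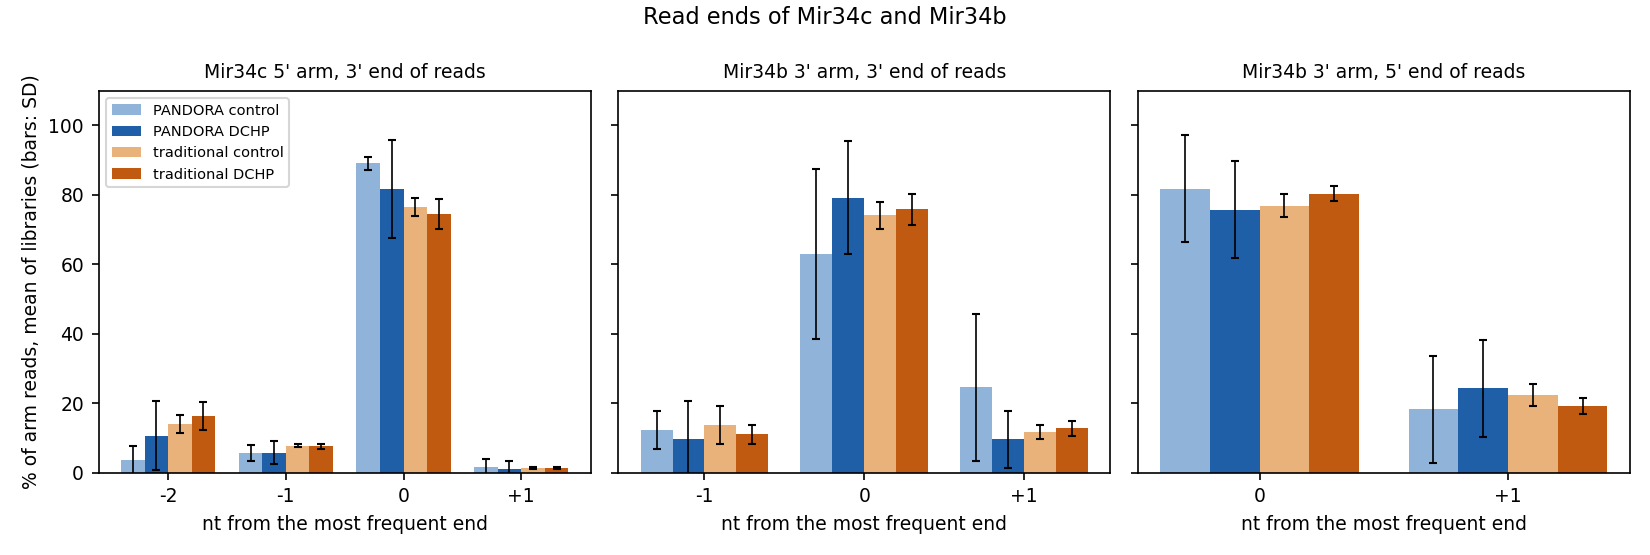
Percentage of arm reads by distance of the read end from the most frequent end, in nt, for the 3′ end of Mir34c 5′ arm reads and for both ends of Mir34b 3′ arm reads; bars are group means over libraries and error bars are SD. The Mir34c form 2 nt shorter is above the form 1 nt shorter in traditional RNA-seq.

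Ends and arms were tested with limma. No member had the 20 reads in every library that the test required, where 85.7% of 35 hairpins differed between methods in 5′ arm share, 79.4% of 34 arms in 5′ end and 35.3% of 34 in length. With a minimum of 10 reads, chosen after the data had been seen, the 5′ arm of Mir34c could be tested. Its mean length was 21.9, 21.9, 21.9 and 21.9 nt in PANDORA-seq control and 21.9, 21.8, 22, 21.6 and 21.5 nt in PANDORA-seq DCHP libraries. The traditional libraries had 21.5 to 21.8 nt, which overlaps the DCHP but not the control libraries of PANDORA-seq. The reads were 0.164 nt longer in PANDORA-seq (SE 0.0495, adjusted p = 0.0162 by limma), and 37.8% of 45 arms differed in length at this minimum. The difference was called without any one of the 19 libraries. Each library counted alike in this fit, whatever its depth. The deepest in PANDORA-seq, DCHP replicates 4 and 5 (59 and 229 reads), had 21.61 and 21.53 nt. The traditional libraries of the same number had 21.60 and 21.53 nt. In the other PANDORA-seq libraries, of 11 to 40.5 reads, the reads were longer than in their traditional partners. The part of depth in the difference was not tested.

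The other 2 features of the Mir34c 5′ arm gave no result that held on both scales. The share of reads at the most frequent 5′ end was lower in PANDORA-seq on the logit scale (difference −0.55, SE 0.22, adjusted p = 0.0274 by limma), where 82.2% of 45 arms differed, but in percent the difference was −0.90 points (SE 0.956, adjusted p = 0.582), where 33.3% differed. The 0.5 added to each count before the logit moves it with depth: at the same share of 97.5%, it gives a mean logit of 3.19 at the PANDORA-seq depth of 11 to 229 reads and 3.66 at the traditional depth. The 5′ arm share did not pass on either scale (logit difference 0.51, adjusted p = 0.133, and 2.56 points, adjusted p = 0.118), with 80.0% and 35.6% of hairpins called. On the logit scale it was called in 3 of 19 fits that left out 1 library, those without PANDORA-seq control replicate 1 (0.70, adjusted p = 0.0381), control replicate 2 (0.62, adjusted p = 0.0729) or DCHP replicate 4 (0.63, adjusted p = 0.0633), and the adjusted p was at most 0.297.

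DCHP and control sperm were then compared within each method, to ask whether exposure moved the family. The fold of DCHP over control for Mir34c was 2.06 in PANDORA-seq (log2 difference 1.05, SE 0.51, 95% interval of the fold 1.01 to 4.20) and 1.79 in traditional libraries (0.84, SE 0.39, interval 1.01 to 3.16). Neither passed adjustment over all hairpins (edgeR unadjusted p = 0.0458 and adjusted p = 0.916, unadjusted p = 0.0462 and adjusted p = 0.693). Group means were 1733 ± 396 (SD, n = 4) and 3515 ± 975 (n = 5) RPM in PANDORA-seq, and 2193 ± 1007 (n = 5) and 3917 ± 1268 (n = 5) in traditional RNA-seq. The 2 methods are not independent evidence, since their libraries of the same replicate number deviated together. More cells of a type and more RNA per cell cannot be told apart in such bulk samples.

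The remaining members did not pass either. The fold of DCHP over control for Mir449a was 1.83 in traditional RNA-seq (log2 difference 0.87, SE 0.45, interval 0.953 to 3.51, adjusted p = 0.717 by edgeR), with means of 11.6 ± 5.57 and 20.6 ± 4.44 RPM (SD, n = 5 each). For Mir34b it was 1.51 in traditional RNA-seq (interval 0.811 to 2.81, adjusted p = 0.809 by edgeR) and 1.23 in PANDORA-seq (interval 0.530 to 2.84, adjusted p = 0.988). Mir34a was 0.915 of its control level in traditional RNA-seq (interval 0.414 to 2.03, adjusted p = 0.952 by edgeR). The intervals leave room for more than a doubling of each.

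No member of those tested, 2 in PANDORA-seq and 4 in traditional libraries, was called by edgeR, and among all hairpins 0.0% of 180 and 0.0% of 418 were called. At an unadjusted p below 0.05 there were 9 and 29 hairpins, and DESeq2 called 0 in both methods. The median difference of all hairpins was 0.02 in PANDORA-seq and 0.17 in traditional libraries. Relative to the median of hairpins with reads mostly of 20–24 nt, Mir34c was 1.09 higher in PANDORA-seq and 0.65 higher in traditional libraries, and Mir449a 0.68 higher in the latter. Without traditional control replicate 2 the traditional differences were 0.61 for Mir34c, 0.64 for Mir449a, 0.35 for Mir34b and 0.45 for Mir34a.

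Mir34c was the 1 hairpin of 180 (0.556%) whose DCHP libraries all lay above all control libraries in PANDORA-seq. In traditional RNA-seq 5 of 418 hairpins (1.2%) did so and no member was among them. Of the hairpins tested, 80 of the 180 and 261 of the 418 had reads mostly of 20–24 nt. How many would separate by chance alone was not tested, so these shares do not by themselves single out Mir34c. Mir122 took a changing part of the miRNA reads, and leaving it out of the total, a choice made after the data had been seen, altered which members separated. The traditional levels of Mir34c were then 2293, 1185, 2520.3, 3187 and 3112 RPM in control and 6022, 3477, 3472, 3780.2 and 4338 in DCHP libraries. Those of Mir449a were 10.1, 7.56, 12.9, 18.2 and 16.2 in control and 19.6, 18.6, 25.1, 21.5 and 27.3 in DCHP libraries. Both members then had all 5 DCHP libraries above all 5 control libraries, as had 11 of 418 hairpins (2.63%). The gaps were narrow, 3187 against 3472 and 18.2 against 18.6 RPM, and the edgeR test on this total did not call either (adjusted p = 0.589 and 0.735).

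**Figure D4:**
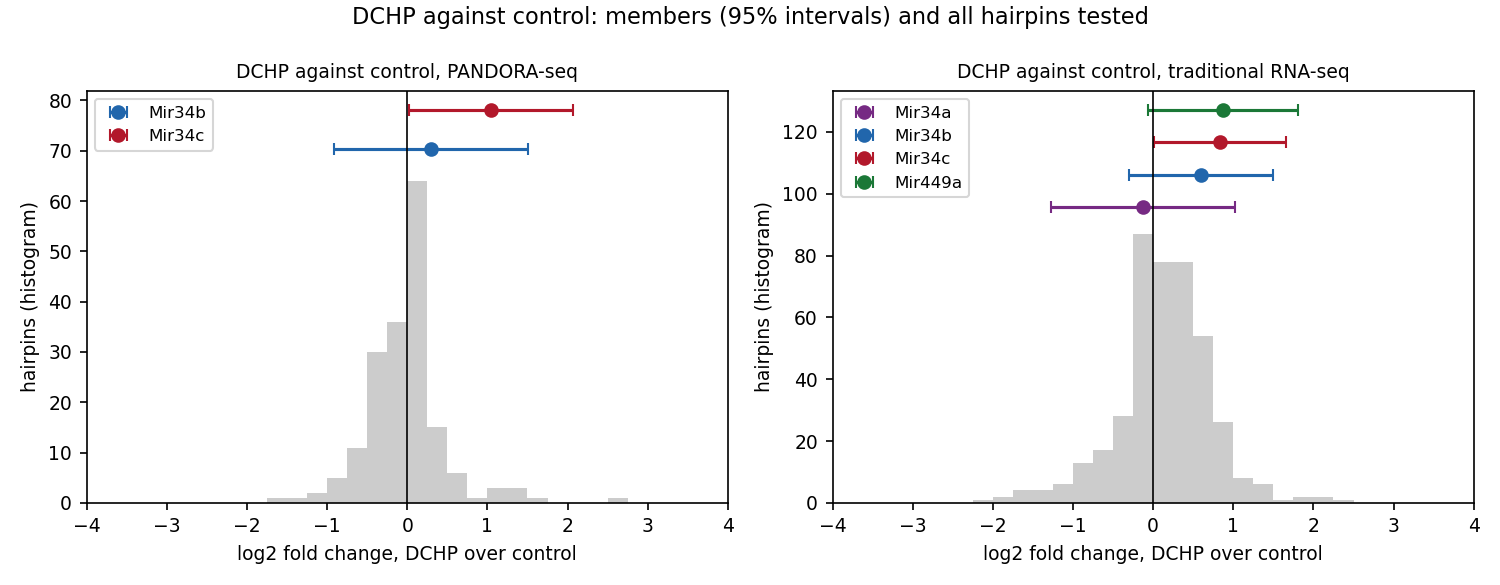
Log2 fold change of DCHP over control for each member tested, with 95% intervals, above the histogram of all hairpins tested (180 in PANDORA-seq and 418 in traditional libraries). Mir34c sits at 1.05 and 0.84 with intervals that begin just above 0.

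The effect of DCHP was not shown to differ between the methods. The interaction of method and exposure was 0.21 for Mir34c (log2 scale, SE 0.56, 95% interval −0.94 to 1.37, adjusted p = 0.988 by edgeR) and −0.29 for Mir34b (SE 0.75, adjusted p = 0.988), and 0.0% of 176 hairpins passed. One hairpin had an unadjusted p below 0.05. No arm or end feature of a member passed for DCHP in reads of 20–24 nt. In the 10 traditional libraries, 0.0% of 162 hairpins (5′ arm share) and 0.0% of 190 arms (5′ end, and length) were called by limma, with 2, 9 and 8 at an unadjusted p below 0.05. The 5′ arm share differed by 0.10 for Mir34c and 0.41 for Mir34b on the logit scale (adjusted p = 0.979 for each by limma), and the length of Mir34b 3′ arm reads by 0.0627 nt (adjusted p = 0.785).

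Marker miRNAs of other cells were followed beside Mir34c, and their part in its values was not tested. The miR-200 family had a median log2 difference of 1.12 in PANDORA-seq (3 genes tested) and 1.18 in traditional RNA-seq (5 tested). Its summed level was 9832 to 39481 RPM in PANDORA-seq DCHP against 9800.5 to 12544 in control, and 17824 to 47539 against 6024 to 21305 in traditional RNA-seq. The X-linked germline genes had medians of 0.11 (6 tested) and 0.54 (13 tested), blood markers −0.56 (1 tested) and −0.93 (5 tested), smooth muscle markers 0.58 and 0.13 (2 tested in each), and Mir122 −0.27 and −0.88. Broadly expressed miRNAs had medians of 0.40 (3 tested) and 0.05 (9 tested), and abundant sperm miRNAs −0.13 (17 tested) and 0.12 (19 tested). The smooth muscle genes had opposite signs in PANDORA-seq, with Mir143 at 1.26 and Mir145a at −0.10. Mir143 is also on the list of abundant sperm miRNAs. Without traditional control replicate 2 the traditional medians were 0.98 for the miR-200 family, 0.30 for the X-linked germline genes (12 tested), −0.17 for blood markers, 0.086 for smooth muscle markers, 0.00028 for Mir122, 0.30 for broadly expressed and 0.083 for abundant sperm miRNAs, so the difference of Mir122 and most of that of blood markers rested on this library. Its removal put the lowest summed miR-200 level of traditional control at 12712 RPM. No gene of any of these lists was called in either method, with or without it.

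Set against the X-linked germline genes, Mir34c varied little in traditional control sperm. It had 6.99, 7.58, 7.70, 8.34 and 7.43 reads per 100 reads of those genes in control, including replicate 2, although its level there ran from 673 to 3126 RPM. The DCHP libraries had 11.3, 11.1, 6.66, 12.2 and 14.8. DCHP replicate 3 was the lowest of all 10 and the other 4 were above every control library, with means of 7.61 ± 0.489 and 11.2 ± 2.92 (SD, n = 5 each). PANDORA-seq libraries ran from 5.38 to 13.2 in control and 10.04 to 20.5 in DCHP.

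The comparison depended on the list set beside Mir34c, and none of these ratios was tested. Per 100 reads of the miR-200 family the groups had close means, 14.4 ± 3.82 in control and 15.0 ± 7.35 in DCHP (SD, n = 5 each) in traditional RNA-seq, and 16.3 ± 4.84 (n = 4) and 17.9 ± 6.86 (n = 5) in PANDORA-seq. Per 100 reads of the abundant sperm miRNAs the groups did not overlap in either method. This list summed to 327052 to 748679 RPM over all libraries, a large part of the miRNA reads, so this ratio is not separate from the comparison in RPM. Mir34c had 0.206 to 0.425 in traditional control and 0.487 to 0.846 in traditional DCHP libraries, where 2.15% of 418 hairpins had all DCHP libraries above all control libraries. In PANDORA-seq it had 0.173 to 0.387 in control and 0.416 to 0.739 in DCHP libraries, where 0.556% of 180 hairpins did so. The share that chance alone gives was not tested here either. Per 100 reads of blood markers, PANDORA-seq had 60.9 to 91.0 in control and 111 to 442 in DCHP libraries (1.11% of hairpins without overlap), while traditional libraries overlapped. In PANDORA-seq this ratio rested on few reads. The blood markers summed to 1969 to 2923 RPM in control and 927 to 3050 RPM in DCHP libraries, where 3 reads stand for 64.0 to 516 RPM. Against smooth muscle markers, Mir122 and broadly expressed miRNAs the groups overlapped in both methods.

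The hairpins most like Mir34c were those whose log2 share departed from the group means together with it, measured by Pearson's r without a test, since the libraries share denominators and RNA. Over all 19 libraries only 20 hairpins had 50 reads in each, with a median r of 0.396, and the 5 most like were Mir10b (0.544), Mir143 (0.541), Mir10a (0.503), Mir25 (0.5002) and Mir148a (0.496). In the 10 traditional libraries 131 could be compared, with a median r of 0.523. The 5 nearest were then X-linked: Mir743b (0.967), the 2 copies of Mir465b (0.966), which share reads, and those of Mir465c (0.955). Mir34b, the neighbour on chromosome 9, was 17th (0.872). Without control replicate 2 the median fell to 0.166, Mir743b kept an r of 0.894 and Mir34b was 20th with 0.613. Traditional libraries held 541 to 828.8 Mir34c reads per 100 Mir743b reads in control and 602 to 812 in DCHP. PANDORA-seq libraries held 311 to 600 in control (mean 412 ± 131, SD, n = 4) and 330 to 1170 in DCHP (653 ± 334, n = 5), which overlapped. These PANDORA-seq ratios rested on only 2 to 10 Mir743b reads a library in control and 7 to 20 in DCHP. The 600 of control replicate 1 came from 12 Mir34c reads and 2 Mir743b reads.

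**Figure D5:**
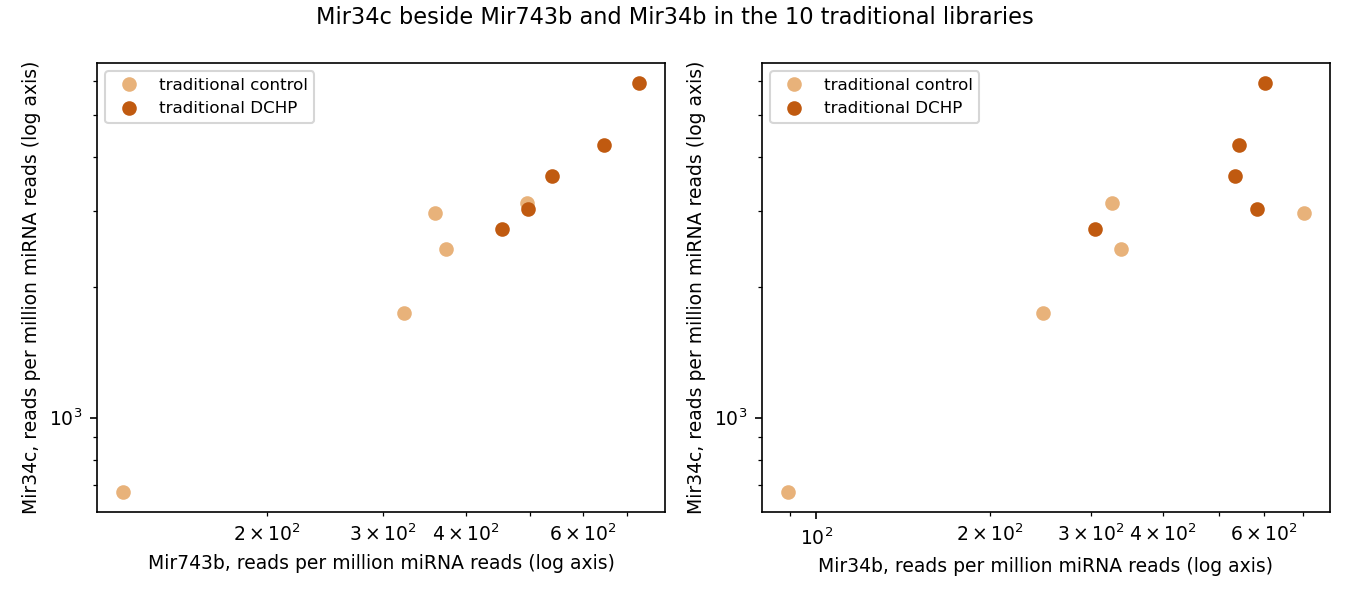
Mir34c against Mir743b (left) and Mir34b (right) in the 10 traditional libraries, in RPM on log axes, with control and DCHP libraries in separate colours. Mir34c rises with both, with r of 0.967 and 0.872 after removal of group means, and the lowest point is control replicate 2 at 673 RPM.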

How the data were processed

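The authors deposited counts of each distinct cleaned read of 15–45 nt per library, without normalization, annotation or molecular identifiers. The text of the paper names SPORTS1.1 for annotation with 1 mismatch; settings of read cleaning were not given in the sources used here. Here reads were matched to miRNA hairpins of GENCODE M21 (2202 genes, less 4 that overlap a tRNA) on the sense strand, and best matches were kept.

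Library size was the total of 20–24 nt reads on 453 hairpins with at least 50% of reads (15–45 nt) of that length, and shared counts were rounded. Levels were tested with edgeR 4.0.16 (R 4.3.3) and, as an alternative, DESeq2 1.42.0. Arms and ends were tested with limma 3.58.1, shares as logits with 0.5 added. Python 3.11.15 was used for matching. Tested on simulated counts with 4-fold changes, edgeR recovered 97.2% of 36 changed hairpins for DCHP in PANDORA-seq, 91.7% of 84 for DCHP in traditional RNA-seq, and 50.7% of 69 and 73.3% of 75 between methods in control and DCHP sperm. False calls were 2.78 to 6.78% of the calls. Smaller changes, such as the 2.06 and 1.79 fold of Mir34c for DCHP, were not simulated, so their recovery is not known.

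Members, marker lists and tests were chosen with earlier results of these data known. The genes named were the members, the 5 hairpins most like Mir34c and at most 3 from a list. Per the paper a replicate is a mouse, and RNA of both exposures went to both methods. Deviations from group means correlated between libraries of the same number across methods (r 0.164–0.888 in 4 of 4 control and 0.603–0.873 in 5 of 5 DCHP pairs). A library's own number was its best match in 3 of 4 control and 5 of 5 DCHP pairs. The pairs entered only the fits with the replicate number as a block, and all other fits took libraries as unpaired. The limma fits over all 19 libraries thus counted both libraries of a pair separately. Within a method, fewer such pairs of control and DCHP libraries correlated (2 of 4 and 1 of 5 pairs above 0.1). No 2 libraries of a group were duplicates (36 pairs, smallest chi-square per degree of freedom 12.6).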

Additional observations from a re-analysis of the deposited data

Results flagged for a closer look

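In 51 sets of 4 or 5 values (levels, shares and read ends of members within a group), 3 had a value far from the rest by Dixon's criterion, where chance alone gives about 1 in 20. Mir34a in traditional control replicate 2 was high, at 14.4 RPM. Mir34b in traditional DCHP replicate 2 was low, at 304 RPM. The share of Mir34c 3′ arm reads at the most frequent 5′ end was high in traditional control replicate 2, at 98.4%.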

How the results depend on the processing

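Among counts of calls under alternatives, 254 stayed within 1.5 times the reported count and 22 did not. For DCHP in PANDORA-seq, 1 hairpin was called with no filter on low counts and 0 to 2 when 1 library was left out. In traditional RNA-seq 1 was called with exact matches. Calls between methods in control sperm numbered 265 with all hairpins as library size, 260 with all reads, 331 with TMM, 308 with DESeq2 and 531 with no filter. In DCHP sperm they numbered 287, 296, 339, 362 and 465. Leaving out 1 library gave 150 to 188 and 144 to 155. Between methods, 5′ arm share gave 16 calls with 50 reads in every library and 14 in percent, 5′ end 16 and 12, and length 4 with 50 reads (11 to 17 when 1 library was left out). For DCHP, length gave 6 calls at 18–26 nt among 36 arms. No arm of a member had the 20 reads in every library needed to enter that fit, so it does not bear on the members.

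Among single members, Mir34b between methods was −1.13, −6.23, −3.32 and −3.26 in control and −1.21, −6.29, −1.75 and −2.69 in DCHP sperm with all hairpins, all reads, TMM and DESeq2, and Mir449a in DCHP sperm was −0.89, −5.83, −1.48, −2.45, and −7.66 to 1.03 when 1 library was left out, the lowest without PANDORA-seq DCHP replicate 5. These settings differ in library size or scaling, apart from the last, which leaves out 1 library. The cause of these and the other changes of sign was not tested. Mir34a for DCHP in traditional RNA-seq was 0.055 with the replicate block and −0.30 to 0.45 when 1 library was left out, the highest without control replicate 2. Mir34c between methods in DCHP sperm was −0.31 to 0.051, the highest without traditional DCHP replicate 1. The interaction was 0.12 with TMM and −0.73 to 0.18 with 1 library left out for Mir34b, and −0.045 with the block for Mir34c. In the traditional libraries, leaving out 1 library gave −0.016 to 0.245 for Mir34c arm share, −0.00578 to 0.0826 for its 5′ end and −0.0337 to 0.0452 nt for its 3′ arm length. With the replicate block, calls between methods were 183 in control sperm, and apart from Mir34b there, where the block also dropped traditional control replicate 5 and leaving out that library alone gave 1.49 (adjusted p = 0.0615), it changed no other call of a member. Depth limits PANDORA-seq, where Mir34c rested on 12 to 234 reads.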
